A study of Mus musculus with 4 samples.

Results

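β-cells with and without *Nos2* transcripts were compared within mouse islets treated for 6 h with IL-1β. *Nos2* encodes inducible nitric oxide synthase (iNOS), the enzyme that makes nitric oxide in cytokine-treated β-cells. The cells came from 1 droplet-based single-cell library, and they were defined by their UMI counts. A UMI, or unique molecular identifier, marks 1 captured transcript. Barcodes had 200 to 4000 detected genes, at most 12% mitochondrial UMIs and at least 4000 UMIs. A β-cell had at least 5% of its UMIs from *Ins1* and *Ins2*, with *Gcg*, *Sst* and *Ppy* each under 1%. By this rule 1049 of the 2911 barcodes of the IL-1β library were β-cells, of 4614 β-cells and 12571 barcodes over all 4 libraries. *Nos2*-positive cells, chosen by at least 1 *Nos2* UMI, numbered 323, and 726 cells had none. The positive cells had higher levels of the chemokines *Ccl2* and *Cxcl1*, of the adhesion molecule *Icam1* and of guanylate-binding proteins, and lower levels of the heat shock gene *Hspa1a* and of the β-cell factor *Mafa*.

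The islets were from adult male C57BL/6 mice (C57BL6/J in the study's methods). All 4 samples were drawn from 1 pool, made of the islets of 8 animals. The islets were treated whole and dissociated afterwards. One sample was untreated, and the others received IL-1β, IFN-γ, or IL-1β together with IFN-γ, each for 6 h. Each condition is 1 library, so no test between groups was possible and no p-value is given. Intervals are exact 95% intervals and cover counting error only. Where no cell had a *Nos2* UMI, the upper limit given is the share that 3 cells would make.

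IL-1β binds a receptor whose signal passes through MyD88 and frees the transcription factor NF-κB from its inhibitors. NF-κB then drives genes for chemokines, adhesion molecules, acute-phase proteins and iNOS, and it also drives its own inhibitors. IFN-γ signals through JAK kinases and is the classical inducer of the guanylate-binding proteins. β-cells are known for a strong IL-1 response, and for losing transcripts of glucose sensing and β-cell identity under inflammatory cytokines.

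The insulin genes matched the β-cell label in both groups. *Ins1* and *Ins2* UMIs were detected in every cell and made up a median of 22.7% of the UMIs of *Nos2*-positive cells and 20.5% of those of *Nos2*-negative cells. Since the rule set a minimum for these genes, the values are a description. Islet amyloid polypeptide, *Iapp*, which the rule did not use and which β-cells secrete with insulin, was likewise detected in every cell of both groups. Markers of immune, endothelial and mesenchymal cells were few. Levels are given as UMIs per 1000000 UMIs of a group (CPM), from the UMIs summed over its cells. The cycling list had 16 UMIs in positive and 4 in negative cells (5.19 and 0.635 CPM), and 1 positive cell held 5 or more of them. The acinar list summed to 13.9 and 18.4 CPM and the Schwann list to 6.16 and 7.78. Of 12 macrophage markers, 4 had no UMI in either group, among them *Csf1r* and *Adgre1*. The macrophage list summed to 61.6 CPM in *Nos2*-positive and 48.8 in *Nos2*-negative cells, and its most abundant gene, *C1qa*, stood at 45.4 and 32.9. The endothelial list summed to 25.6 and 13.2 CPM, with 10 of 10 markers present and *Flt1* highest at 6.48 and 1.75. The mesenchymal list summed to 2.92 and 3.97, with *Dcn* and *Lum* at 0, and the lymphocyte list to 1.62 and 2.70, with *Cd3e* and *Trac* at 0.

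The other endocrine lists were not alike. The markers of PP-cells summed to 241 CPM in *Nos2*-positive and 515 in *Nos2*-negative cells, mostly from *Pyy*. A total of 12 positive and 35 negative cells held 5 or more UMIs of this list. For the α-cell list these were 86 and 200 cells, and for the ductal list 192 and 435. The α-cell list summed to 389.5 and 415, and the δ-cell list to 147 and 167. The ductal list, of which *Krt18* was highest, summed to 602 and 732. The parts of these cells in the differences below were not tested, except where values without them are given. No library stood apart by barcodes shared with another. The IL-1β library shared 8 barcodes with the other libraries, and 3 of these were β-cells.

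*Nos2* was detected in 30.8% of the β-cells (28.0 to 33.7). It lies on chromosome 11, at 78920787 to 78960254 of the mm10 build. In the untreated library 0 of 1135 β-cells had a *Nos2* UMI, which allows a share of up to 0.264%. With IFN-γ alone 7 of 1206 β-cells had one (0.580%), and with both cytokines 882 of 1224 (72.1%). The untreated cells, none of which had *Nos2*, were the deepest at a median of 17359 UMIs. The median was 8562 UMIs in the IL-1β library, 11287.5 in the IFN-γ library and 12307.5 in the library with both cytokines. Within the IL-1β library, 0 of 37 barcodes with macrophage markers, 0 of 33 with endothelial markers and 4 of 566 barcodes under 1500 UMIs had a *Nos2* UMI. The share in β-cells was above that in these barcodes, whose median depths were 5170, 3882 and 838.5 UMIs.

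Many positive cells held few *Nos2* UMIs. A positive cell held 1 to 24 *Nos2* UMIs with a median of 2, and 111 of the 323 held exactly 1. The positive cells were also deeper, at a median of 9236 UMIs against 8221. The share of positive cells was 20.5% in the lowest of 3 depth classes of 351, 348 and 350 cells, 35.3% in the middle one and 36.6% in the highest. With every cell thinned to 4000 UMIs, the shares were 17.9%, 27.6% and 21.7%, and 22.4% (19.9 to 25.05) over all 1049 cells. Thinning left no *Nos2* UMI in 88 of the 323 positive cells. *Nos2*-negative therefore means that no *Nos2* transcript was captured, not that there was none.

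**Figure D1:**
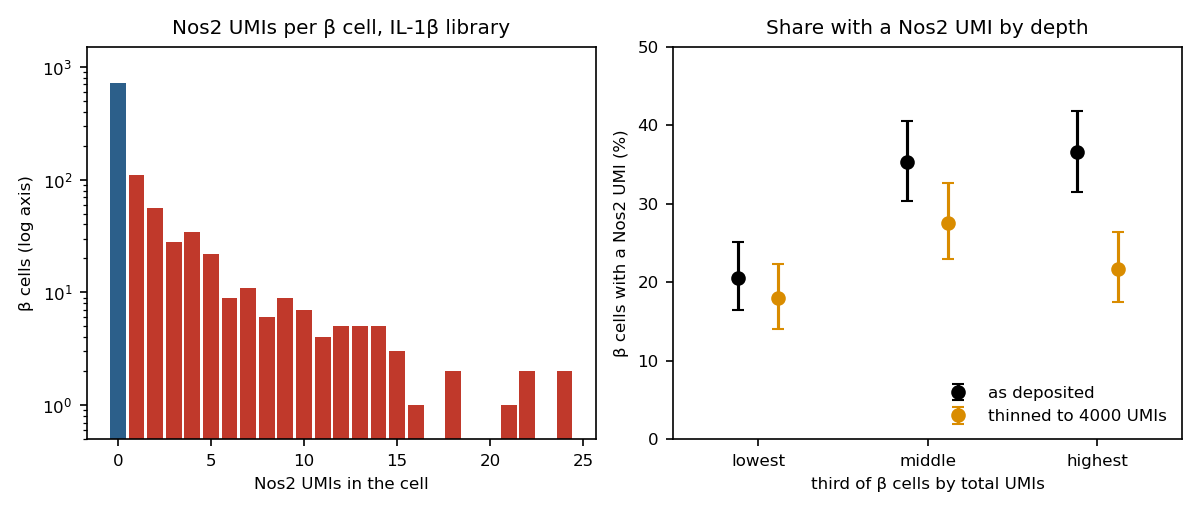
Left, number of β-cells of the IL-1β library (log axis) by their *Nos2* UMIs, with the 726 negative cells in blue and the 323 positive cells in red. Right, percent of β-cells with a *Nos2* UMI in 3 depth classes, as deposited (black) and thinned to 4000 UMIs (orange), with exact binomial 95% intervals; the lowest class was below the others as deposited, at 20.5%, and after thinning the middle class was highest at 27.6%.

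A total of 6982 genes had a UMI in at least 10% of the β-cells and were compared, leaving out *Nos2*, the hormone genes of the rule and mitochondrial genes. Of these, 68 were at least 1.5-fold higher in *Nos2*-positive cells (0.974%) and 147 at least 1.5-fold lower (2.11%), and the median ratio of all genes was 0.967. Past the same fold both as deposited and with *Nos2* called again on thinned cells were 58 higher (0.831%) and 98 lower genes (1.4%). Thinned to 4000 UMIs with *Nos2* called again, 244 genes were higher (3.49%) and 486 lower (6.96%), with fewer UMIs behind each ratio. Genes just inside the fold were *Myh14* at 1.511 and *Plxnb1* at 1.502, and just outside it *Pigr* at 1.498. On the lower side *Cbr1* was just inside at 0.666, and *Spg7* and *Coro2b* just outside at 0.669 and 0.668. The detection limit of 10% was set over both groups together, so a gene could pass it through 1 group alone. The differences in ratio rest on the cells of 1 library and have no replicate check. At these shares a short list holds few or no genes past the fold. A count of 0 or 1 in a list below is therefore at the level of all genes and is no result about its members. Larger counts are to be read beside the same shares. The median of all genes was below 1, so more genes lay below 1 than above it. Counts of list members on either side of 1 are a description.

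Among the genes past the fold both as deposited and after thinning, the 15 with the highest ratios were *Ccl2*, *AW112010*, *Cxcl1*, *Crispld2*, *Icam1*, *Cxcl10*, *Cfb*, *Slc6a14*, *Glipr2*, *Gbp5*, *Gbp4*, *Il4i1*, *Ikbke*, *Ccrl2* and *8430408G22Rik*, with ratios from 3.92 down to 1.90. The 15 with the lowest ratios held 4 heat shock genes, *Hspa1a*, *Hspa1b*, *Dnajb1* and *Hsph1*, and the β-cell factor *Mafa*. The others were *Pyy*, *Tecpr1*, *Mdm1*, *Rgs2*, *Ttyh1*, *St8sia1*, *Plat*, *St8sia5*, *Rbp4* and *Zfand2a*, and the 15 ratios ran from 0.165 to 0.491. *Tecpr1*, *Mdm1*, *St8sia1*, *Plat*, *St8sia5* and *Rbp4* were in under 10% of positive cells, and *Glipr2* was in 9.92% of negative cells. These genes passed the 10% limit through the group where they were higher, so their place on the lists is a description. Of the 15 higher genes, each was lower in untreated β-cells than in *Nos2*-negative cells of the treated library, as the plot of levels shows.

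**Figure D2:**
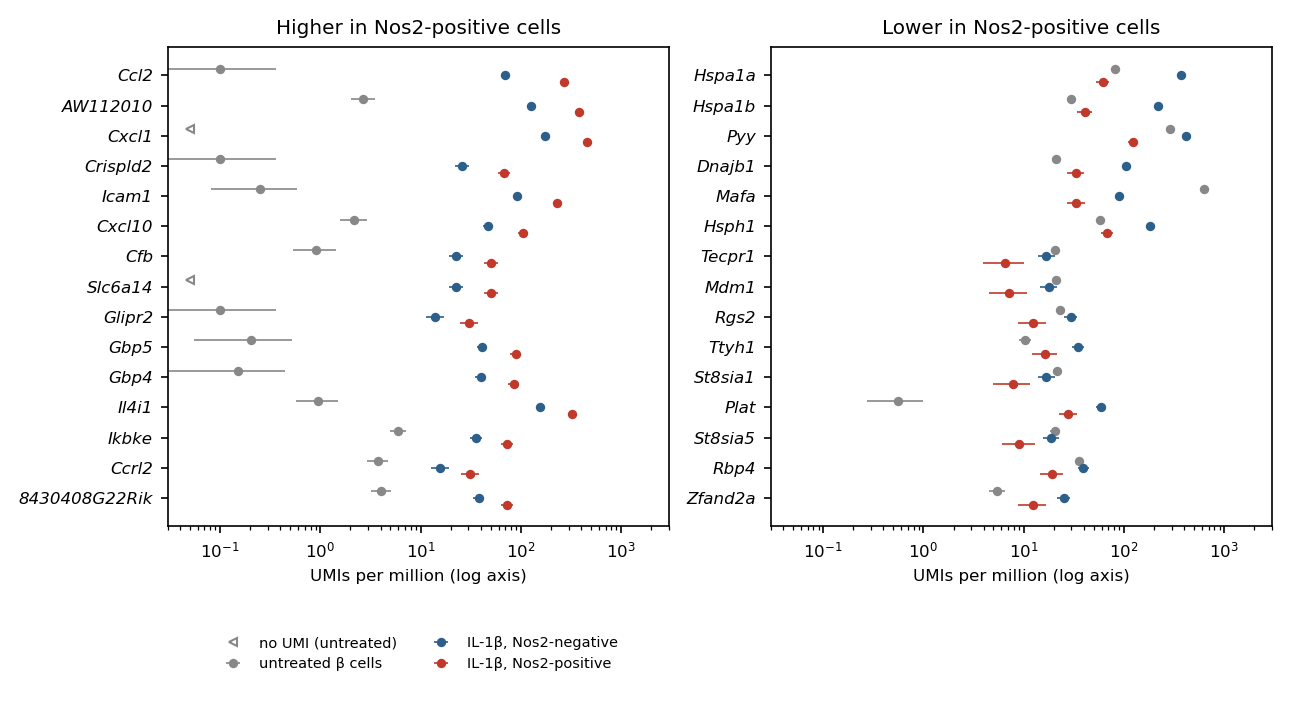
Levels of the 15 higher (left) and 15 lower genes (right) in CPM on a log axis, in untreated β-cells (grey), *Nos2*-negative (blue) and *Nos2*-positive (red) β-cells of the IL-1β library, with exact Poisson 95% intervals, and open triangles for no UMI. For the higher genes the order is untreated, negative, positive throughout, from 0 to 6.00, 14.0 to 173 and 30.5 to 457 CPM.

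Before the genes are taken in turn, the start regions of 4 of them are shown, 3 higher genes whose stretch holds a κB motif and *Hspa1a* with a heat shock motif. The κB motif is the consensus site of NF-κB, 10 bases long. The heat shock motif searched was GAANNTTC, a pair of facing sites of heat shock factor that reads the same on both strands. Each line gives the 250 bases before a RefSeq transcript start on GRCm38.p6, 5′ to 3′ on the gene's strand, with the motif in capitals. They lie at chr5:90890995-90891244 (plus strand) for *Cxcl1*, chr19:11050567-11050816 (minus) for *AW112010*, chr3:142496684-142496933 (plus) for *Gbp5* and chr17:34972157-34972406 (minus) for *Hspa1a*.
Cxcl1: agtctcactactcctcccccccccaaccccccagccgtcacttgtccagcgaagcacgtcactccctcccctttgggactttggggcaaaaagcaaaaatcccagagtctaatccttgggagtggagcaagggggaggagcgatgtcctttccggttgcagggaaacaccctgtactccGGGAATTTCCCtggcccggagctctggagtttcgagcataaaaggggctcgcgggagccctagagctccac
AW112010: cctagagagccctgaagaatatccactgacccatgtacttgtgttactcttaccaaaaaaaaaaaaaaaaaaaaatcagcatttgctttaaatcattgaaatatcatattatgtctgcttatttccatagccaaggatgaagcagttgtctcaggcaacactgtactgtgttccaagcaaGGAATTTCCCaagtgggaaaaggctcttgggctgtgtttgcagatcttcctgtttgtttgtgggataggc
Gbp5: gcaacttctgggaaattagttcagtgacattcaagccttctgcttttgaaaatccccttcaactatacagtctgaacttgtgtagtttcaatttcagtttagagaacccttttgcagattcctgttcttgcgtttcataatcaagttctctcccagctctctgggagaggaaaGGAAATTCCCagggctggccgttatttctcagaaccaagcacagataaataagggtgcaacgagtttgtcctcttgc
Hspa1a: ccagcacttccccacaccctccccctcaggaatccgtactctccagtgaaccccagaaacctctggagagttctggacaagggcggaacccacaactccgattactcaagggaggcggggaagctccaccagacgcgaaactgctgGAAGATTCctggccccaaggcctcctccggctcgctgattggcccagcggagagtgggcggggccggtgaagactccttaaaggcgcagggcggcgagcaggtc

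The κB matches begin 71 (*Cxcl1*), 70 (*AW112010*) and 77 (*Gbp5*) bases before the start, and in *Cxcl1* matches on both strands overlap. The *Hspa1a* match begins 104 bases before it. Of the 68 higher genes 48 were in the RefSeq table, and 11 of these (22.9%) held a κB match on either strand. This was 4 of 116 (3.45%) for the lower genes, 5.44% of the 5590 compared genes in the table and 4.46% of all 27025 genes in it. Among the 15 highest ratios 11 were in the table, and *AW112010*, *Ccrl2*, *Cxcl1*, *Cxcl10* and *Gbp5* had a match. The heat shock motif was in 8.62% of the lower genes, in 8.33% of the higher genes, in 5.64% of the compared genes and in 7.73% of all genes in the table. *Hspa1a* and its neighbor *Hspa1b* were the only ones of the 12 lowest-ratio genes in the table with it. A match shows letters only, and binding was not measured.

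Of 22 chemokine and cytokine genes 7 were detected in enough cells to be compared. In *Nos2*-positive cells 4 were higher past the fold, *Ccl2*, *Cxcl1*, *Cxcl10* and *Csf1*, none was lower, and the list median was 1.66. *Ccl2*, which draws monocytes and lies at chr11:82035571-82037453, was at 69.1 CPM in *Nos2*-negative cells (62.7 to 75.9) and 271 in *Nos2*-positive cells (253 to 289.6), with 0.101 in untreated β-cells. That is a ratio of 3.92 (3.48 to 4.41). It was carried by a minority of cells in both groups. Thinned to 4000 UMIs, 22.3% of positive and 8.26% of negative cells had a *Ccl2* UMI, and single cells reached 22 and 30 UMIs. *Cxcl1*, which draws neutrophils, was at 457 and 173 CPM, a ratio of 2.64 (2.44 to 2.87), and had no UMI in untreated β-cells. Both ratios varied with depth. In the lowest depth class *Cxcl1* was at 6.97 (5.92 to 8.23) and in the highest at 1.62 (1.43 to 1.83), and *Ccl2* was at 7.23 (5.57 to 9.43) and 3.04 (2.60 to 3.57). *Cxcl10*, which draws T cells, was at 105.7 and 46.8 CPM. Here the share of cells differed little, 10.8% and 8.82% after thinning, while the highest cells had 21 and 12 UMIs. Its ratio was 2.11 in the lowest depth class, 1.03 (0.771 to 1.36) in the middle one and 4.79 (3.63 to 6.37) in the highest. *Il1b*, the gene of the cytokine itself, was at 20.1 and 17.9 CPM, a ratio of 1.12 (0.808 to 1.54).

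Surface receptors and inflammatory enzymes followed the same direction. All 11 members compared had a ratio above 1, and 5 passed the fold, *Icam1*, *Cd40*, *Ripk2*, *Steap4* and *Clic4*. *Icam1*, an adhesion molecule for leukocytes at chr9:21015985-21028817, was at 228 CPM in positive cells and 91.5 in negative cells, a ratio of 2.49 (2.22 to 2.78), against 0.252 untreated. Its ratio was 4.13 (3.33 to 5.14) in the lowest depth class, 2.16 in the middle one and 2.23 in the highest. Its share after thinning was 45.8% of positive and 24.2% of negative cells. *Cd40*, a costimulatory receptor, was at 74.2 and 39.2 CPM, a ratio of 1.89 (1.57 to 2.27). Superoxide dismutase 2, *Sod2*, was widely expressed on either side of the *Nos2* line. Its level was 1242 CPM in positive and 942 in negative cells, a ratio of 1.32 (1.27 to 1.37) that did not reach the fold, against 99.0 untreated. The acute-phase and C/EBP list had 3 of 13 members past the fold, complement factor B (*Cfb*, 2.24, or 4.60, 2.24 and 1.66 in the depth classes from lowest to highest), *C3* (1.53) and the antimicrobial peptide *Defb1* (1.52). *Defb1* did not reach the fold in the middle (1.37) and highest depth classes (1.445), without the cells rich in *Hspa1a* (1.42), those of at least 10 *Hspa1a* UMIs per 10000, with no upper gene limit (1.497) or with insulin of at least 10% (1.48). It was detected in 94.1% of positive and 79.3% of negative cells and was 24.7-fold above untreated (22.5 to 27.2) in the negative cells, relative to the median gene.

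Of 16 NF-κB factors and inhibitors compared only *Nfkb2*, a subunit precursor, passed the fold (1.53, 1.11 to 2.08), 13 had a ratio above 1 and the median was 1.18. *Nfkbia*, which encodes the inhibitor IκBα, was at 552 and 442 CPM, a ratio of 1.25 (1.18 to 1.33), and stood 6.51-fold above untreated in the negative cells. *Ikbke*, an IκB kinase related gene, was among the 15 highest at 2.04 (1.69 to 2.47). The list of the IL-1 receptor and its proximal adaptors had 0 of 12 members past the fold and a median of 0.983, with *Myd88* highest at 1.42 and *Traf6* lowest at 0.7998. The enzymes that supply iNOS with arginine and with its cofactor tetrahydrobiopterin had 0 of 7 past the fold and a median of 0.988. Over all genes 0.974% were past it upward and 2.11% downward. Among these *Gch1*, the first enzyme of tetrahydrobiopterin synthesis, was at 516 CPM in positive and 495 in negative cells, a ratio of 1.04 (0.981 to 1.11).

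Guanylate-binding proteins, GTPases that act against intracellular pathogens, formed the list with the highest median, at 1.84. Of 9 members compared 7 were past the fold, *Gbp2*, *Gbp3*, *Gbp4*, *Gbp5*, *Gbp6*, *Gbp8* and *Gbp9*. *Gbp7* was at 1.22 and the immunity-related GTPase *Irgm1* at 0.926. *Gbp5* was at 88.8 CPM in positive and 41.1 in negative cells, a ratio of 2.16 (1.82 to 2.57), and at 0.202 in untreated cells. *Gbp2* was detected in 84.5% and 58.0% of cells, with 409 and 234 CPM, a ratio of 1.75 (1.62 to 1.89). In the depth classes from lowest to highest, *Gbp2* was at 2.63, 1.55 and 1.59, and *Gbp4* at 3.79, 1.53 and 2.16. The *Gbp* genes are near copies of each other, and no source used here states how reads shared between them were counted. The long noncoding gene *AW112010*, at chr19:11047612-11055808, had the second highest ratio of the named genes, 2.98 (2.73 to 3.27), with 379 and 127 CPM. It was at 6.56 (5.31 to 8.12) in the lowest and 2.32 (2.02 to 2.68) in the highest depth class. *Il4i1*, an amino acid oxidase, was at 328 and 157 CPM, a ratio of 2.09 (1.91 to 2.28), in 71.2% and 39.8% of cells.

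Of other interferon-stimulated genes 12 of 17 had a ratio above 1 and the median was 1.19. None was past the fold, which 0.974% of all genes passed upward and 2.11% downward, and *Ifih1*, a sensor of viral RNA, was highest at 1.46. *Irf1*, a transcription factor of the interferon response, was lowest, with 33.4 CPM in positive and 43.4 in negative cells, a ratio of 0.770 (0.608 to 0.969). It was at 0.989 (0.771 to 1.26) without the *Hspa1a*-rich cells, and at 1.04 (0.648 to 1.63) in the lowest depth class. Antigen processing and presentation had 0 of 14 past the fold and a median of 1.17, from *B2m* at 0.920 to the peptide transporter *Tap2* at 1.42. The list of interferon and cytokine receptor signaling had 0 of 8 and a median of 1.16.

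**Figure D3:**
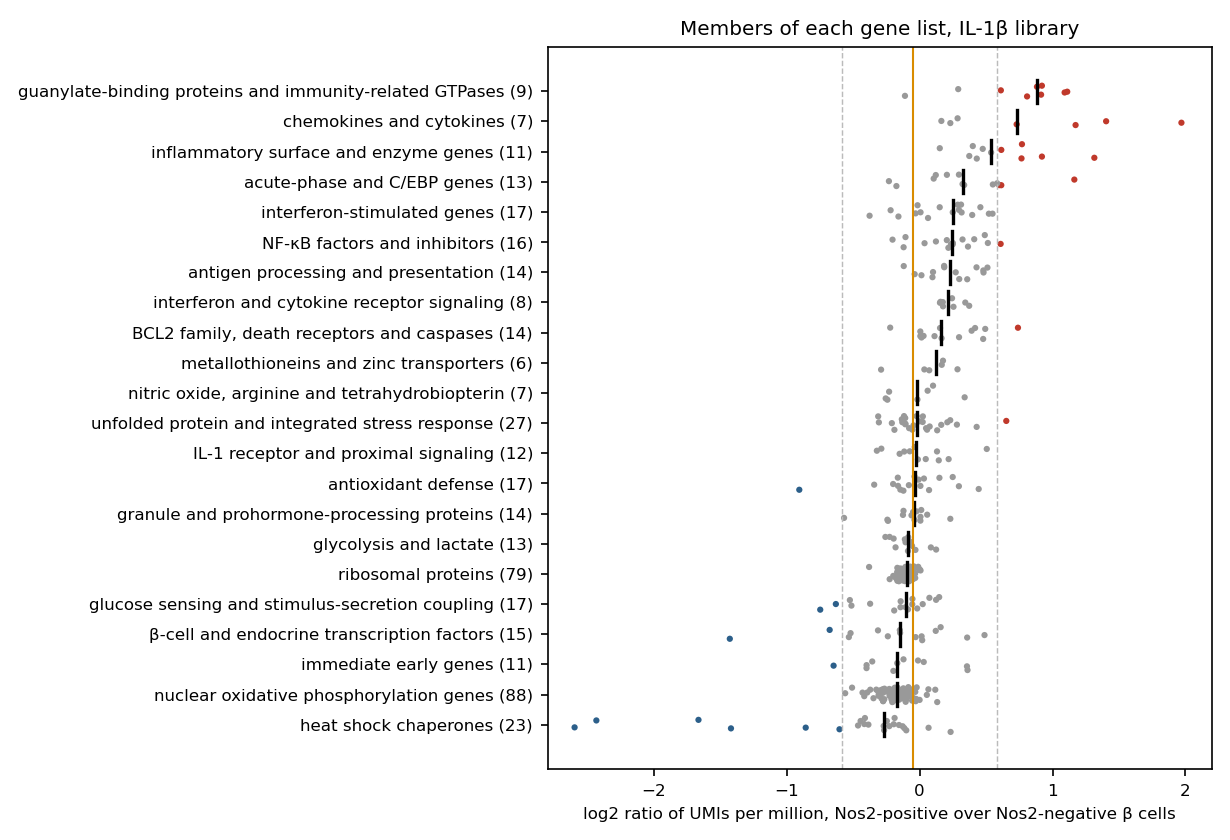
Log2 ratio of CPM, *Nos2*-positive over *Nos2*-negative β-cells of the IL-1β library, for the compared members of each list (points, number in brackets), with list medians (black bars), the median of all genes at −0.05 (orange line) and the 1.5-fold limits (dashed). Guanylate-binding proteins are highest with a median of 0.88, and heat shock chaperones are lowest at −0.27 with 6 members past the lower limit.

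*Hspa1a* and *Hspa1b*, heat shock genes whose products refold or hold damaged proteins, had the lowest ratios of the named genes. Of 23 heat shock members compared 6 were at least 1.5-fold lower in *Nos2*-positive cells, against 2.11% of all genes. A ratio below 1 was seen in 21, and the median was 0.829, against 0.967 over all genes. *Hspa1a*, at chr17:34969190-34972156, was at 61.3 CPM in positive cells (52.8 to 70.6) and at 371 in negative cells (356 to 386), a ratio of 0.165 (0.142 to 0.192). Untreated β-cells had 82.2. The ratio varied with depth, from 0.0549 (0.0339 to 0.0843) in the lowest depth class and 0.207 in the middle one to 0.410 (0.331 to 0.505) in the highest. The near-identical copy *Hspa1b*, whose reads may be shared with it, was at 40.5 and 219, a ratio of 0.185, which was 0.0746 in the lowest and 0.442 in the highest depth class. *Dnajb1*, the cochaperone of HSP70, had a ratio of 0.315 (0.253 to 0.389), *Hsph1* of 0.374 (0.321 to 0.433; 0.215 in the lowest and 0.515 in the highest depth class), *Dnaja1* of 0.552 and the mitochondrial *Hspe1* of 0.658. The constitutive *Hspa8* was at 0.932.

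High *Hspa1a* was concentrated in a small set of cells. After thinning, the *Hspa1a* level was 0 in 289 of 323 positive and 599 of 726 negative cells, and the highest cells had 18 and 77 UMIs. A total of 79 cells had at least 10 *Hspa1a* UMIs per 10000, and 3 of them (3.80%, 0.790 to 10.7) were *Nos2*-positive. Of the 117 cells with *Hspa1a* below that limit 36.8% were positive (28.0 to 46.2), and of the 853 cells without *Hspa1a* 32.5% (29.3 to 35.7). The 79 cells had a median of 6763 UMIs against 8645 in the cells without *Hspa1a*, and thinned to 4000 UMIs 1 of the 79 was positive (1.27%) against 23.6% of the cells without it. With these cells left out, the *Hspa1a* ratio was 1.04 (0.821 to 1.31). Since these cells were chosen by *Hspa1a*, its own ratio without them is a description. The same holds for its near-identical copy *Hspa1b*, which was then at 0.564. Of the other genes, *Dnajb1* was at 0.600 and *Hsph1* at 0.617, while *Ccl2* was at 3.55 and *Icam1* at 2.32. Of the unfolded protein response 0 of 27 members was lower and 1, *Chac1*, was higher at 1.57, beside 2.11% and 0.974% of all genes. Among immediate early genes 1 of 11, *Jun*, was lower at 0.638, and the median was 0.890.

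Genes of β-cell identity differed only in part. Of 15 transcription factors compared 2 were lower and none higher, beside 2.11% and 0.974% of all genes, and the median was 0.903. *Mafa*, which drives insulin transcription in mature β-cells and lies at chr15:75745490-75748228, was at 33.4 CPM in positive (27.2 to 40.5) and 89.9 in negative cells (82.6 to 97.6), a ratio of 0.371 (0.298 to 0.459). In untreated cells it was at 623, so that the negative cells were 9.78-fold below untreated relative to the median gene. After thinning, 8.98% of positive and 19.7% of negative cells had a *Mafa* UMI, and without the 79 *Hspa1a*-rich cells its ratio was 0.495 (0.393 to 0.619). *Pdx1*, the factor of pancreatic and β-cell development, had a ratio of 0.625 (0.498 to 0.779) as deposited. It was not past the fold with *Nos2* called again after thinning (0.713) or with the deposited calls thinned (0.792). With at least 2 *Nos2* UMIs it was at 0.695. In the depth classes from lowest to highest it was at 0.877 (0.543 to 1.37), 0.633 and 0.550. *Nkx6-1* was at 1.12 (0.988 to 1.26).

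Glucose sensing and secretion genes had 2 of 17 members lower, beside 2.11% of all genes, and a median of 0.929. The 2 were the incretin receptor *Gipr* at 0.595 (0.376 to 0.915) and the fatty acid oxidation enzyme *Hadh* at 0.646 (0.560 to 0.743). Without the *Hspa1a*-rich cells *Hadh* was at 0.768. Its ratio was past the fold in the lowest depth class, at 0.405 (0.268 to 0.591), but not in the middle (0.679) or the highest one (0.763). *Slc2a2*, the glucose transporter, had too few cells for the comparison, with 10.7 CPM in positive and 15.7 in negative cells against 139 untreated. None of 14 granule and prohormone-processing genes was past the fold as deposited, and the median was 0.970. *Ucn3*, a mark of mature β-cells, was lowest at 0.674 (0.509 to 0.884), or 0.851 without the *Hspa1a*-rich cells. It passed the fold with *Nos2* called again after thinning (0.520). It also did in the lowest (0.413) and middle depth classes (0.590), but not in the highest (0.883). *Iapp* was at 0.983. Of ribosomal protein genes 0 of 79 were past the fold, 77 had a ratio below 1 and the median was 0.936. Of nuclear oxidative phosphorylation genes 0 of 88 were past it, 84 were below 1 and the median was 0.887. The median of all genes was 0.967, so a ratio below 1 was the more common side for any gene. Glycolysis had 0 of 13. Among death-related genes 1 of 14, the BH3-only gene *Bid*, was higher at 1.67, and of antioxidant genes 1 of 17, *Txnip*, was lower at 0.534, beside 0.974% higher and 2.11% lower over all genes. Metallothioneins and zinc transporters had 0 of 6, and none of the 9 genes listed for dedifferentiation was detected in enough cells.

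Peptide YY, encoded by *Pyy*, is a hormone of PP- and some other islet cells. Its level was 123 CPM in positive and 412 in negative cells, a ratio of 0.299, but it was detected in 12.4% and 13.4% of cells after thinning, and single cells reached 55 and 361 UMIs. The ratio was 0.0809 with at least 2 *Nos2* UMIs required, 0.5001 in the middle depth class, 0.485 with insulin of at least 10% and 0.609 with no upper gene limit. Without the cells with 5 or more UMIs of the PP-cell list the ratio was 1.22 (0.919 to 1.62), a description only, since *Pyy* makes up most of this list. *Rbp4*, which δ-cells express, had a ratio of 0.486, and of 0.386 without cells with 5 or more UMIs of the δ-cell list. It did not reach the fold in the middle depth class (0.852) or with no upper gene limit (0.721). The 2 compared genes of the δ-cell list, *Rbp4* and *Pdx1*, were lower. *Pdx1* is also the β-cell factor given above, and it was not past the fold with *Nos2* called again after thinning (0.713). The most abundant gene of the δ-cell list, *Sst*, which the β-cell rule limits, was at 91.4 CPM in positive and 71.1 in negative cells. Of the 3 compared genes of the α-cell list 1 was lower, the transthyretin gene *Ttr* at 0.547. The most abundant gene of that list, *Gcg*, which the β-cell rule limits, was at 183 CPM in positive and 177 in negative cells.

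Within the positive cells, levels differed with the number of *Nos2* UMIs. Cells with 1, with 2 to 4 and with 5 or more numbered 111, 118 and 94, at median depths of 9044, 9075.5 and 9586.5 UMIs. *Ccl2* was at 69.1 CPM without *Nos2* and at 204, 259.5 and 359 in these classes. *Icam1* was at 91.5 without *Nos2* and at 203, 197 and 292. In both genes the cells with a single *Nos2* UMI were above those with none by more than the counting intervals. These intervals do not cover the spread between cells. The named genes were chosen by their ratio over all positive cells, so their levels by class are a description. *AW112010* (127, 220.4, 270.3 and 688) and *Cxcl1* (173, 363, 357 and 682) were highest in the cells with 5 or more. *Cxcl10* was at 46.8, 48.9, 40.4 and 248 CPM, the last from 230 UMIs in 94 cells. After thinning, 288 of the 323 positive cells had no *Cxcl10* UMI and the highest had 21. How many cells carry the level of the last class was not tested. *Nfkbia* was at 442, 473, 487 and 719, likewise highest in the last class. *Mafa* was lowest in the highest class, at 89.9, 38.3, 39.5 and 20.5. *Hspa1a* was at 371 without *Nos2* and at 41.2, 58.4 and 87.2 in the positive classes.

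**Figure D4:**
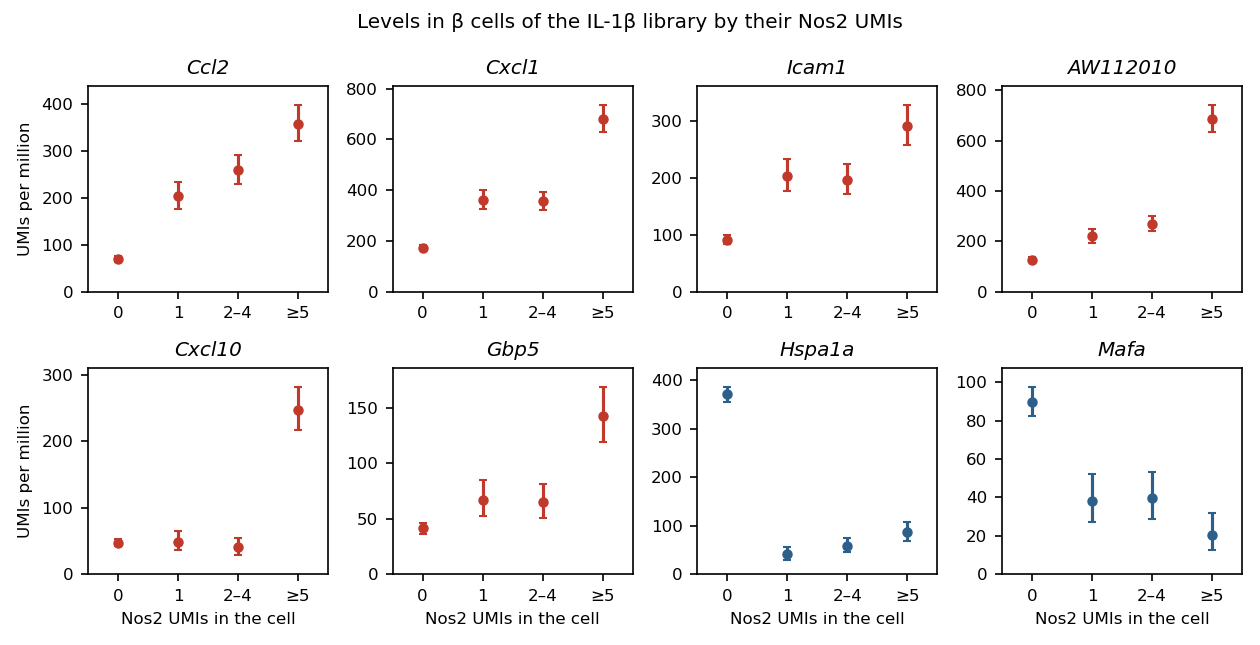
CPM (linear axes from 0) of 8 genes in the β-cells of the IL-1β library with 0, 1, 2 to 4 or 5 and more *Nos2* UMIs (726, 111, 118 and 94 cells), with exact Poisson 95% intervals. The inflammatory genes (red) were highest in the last class, with *Cxcl10* at 248 CPM there and 40.4 to 48.9 in the others. *Hspa1a* and *Mafa* (blue) were highest in the cells without *Nos2*.

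Detection in single cells was also counted with all cells thinned to 4000 UMIs and *Nos2* called again. *Icam1* and *Mafa* had been chosen partly by their ratios in this setting, so their shares are a description. Of 235 *Nos2*-positive cells 114 had an *Icam1* UMI (48.5%, 42.0 to 55.1), against 210 of 814 negative cells (25.8%, 22.8 to 28.9). Read the other way, *Nos2* was found in 35.2% of the cells with *Icam1* and in 16.7% of those without. *Sod2* was found in 97.9% of positive and 86.0% of negative cells. *Nos2* was detected in 230 of 930 cells with a *Sod2* UMI (24.7%) and in 5 of 119 without (4.20%, 1.38 to 9.53). For *Mafa* the shares were 12.8% with and 24.3% without it.

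The library with both cytokines gave ratios in the same direction for most of these genes. It held 882 positive and 342 negative β-cells, at median depths of 12866.5 and 10903.5 UMIs, so that depth differed between its groups as well. Of its 7347 compared genes 222 were at least 1.5-fold higher (3.02%) and 468 lower (6.37%) in *Nos2*-positive cells. Of the IL-1β genes that could be compared in both libraries, 33 of 61 higher genes (54.1%) and 44 of 128 lower genes (34.4%) were past the fold in the same direction there, and none in the opposite one. These are 21.4% and 11.1% of the 154 and 398 genes past the fold with both cytokines that were compared in both libraries. *Ccl2* was at 4.25 (3.88 to 4.65) there, *Icam1* at 2.46 (2.27 to 2.66), *Cxcl1* at 3.81 and *Gbp5* at 1.89. *Hspa1a* was at 0.314 (0.295 to 0.334) and *Mafa* at 0.4996 (0.433 to 0.577). *Pyy* was on the other side of 1, at 1.37 (1.27 to 1.49), and so was *Rbp4*, at 1.45 (1.12 to 1.91). *Irf1* was at 1.19 (1.11 to 1.27), against 0.770 with IL-1β alone, or 0.989 there without the *Hspa1a*-rich cells.

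**Figure D5:**
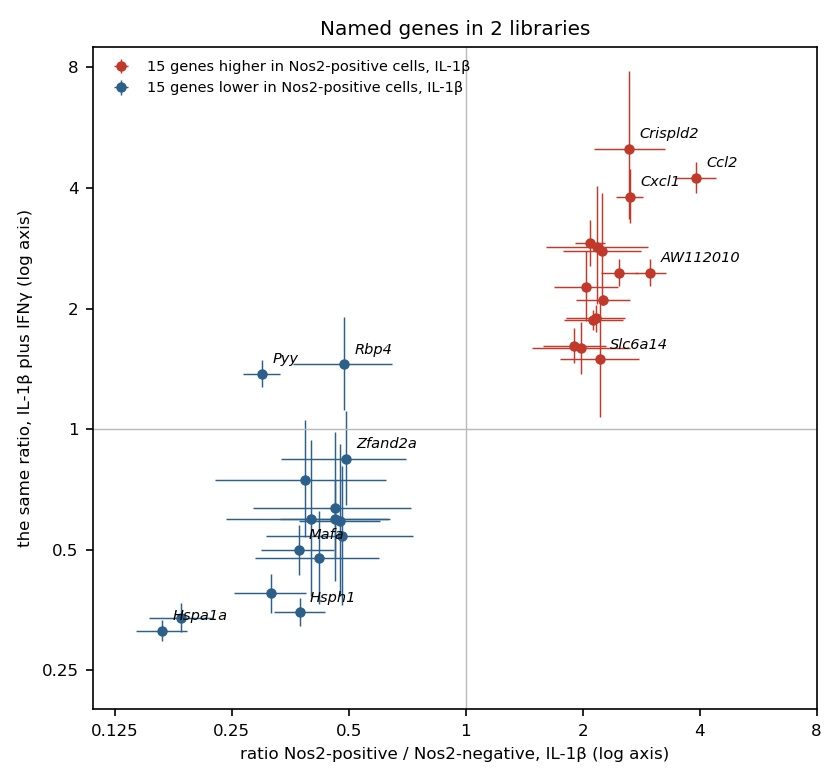
Ratio of CPM, *Nos2*-positive over *Nos2*-negative β-cells, in the IL-1β library (horizontal) and in the library with both cytokines (vertical), both on log axes, for the 15 higher (red) and 15 lower (blue) genes, with counting intervals. All higher genes lie above 1 in both libraries, and of the lower genes *Pyy* and *Rbp4* lie above 1 with both cytokines, at 1.37 and 1.45.

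*Nos2*-negative cells of the treated library were themselves unlike untreated cells. Insulin made up a median of 41.6% of UMIs in untreated β-cells, and the median gene was 1.41-fold higher in the *Nos2*-negative cells of the IL-1β library, so ratios to untreated are relative to this median. Of the 6982 genes 1092 (15.6%) were at least 1.5-fold higher in them than in untreated β-cells and 1080 (15.5%) lower. Of the 68 genes higher in *Nos2*-positive cells 55 were also past the fold above untreated in the negative cells. *Icam1* was 257-fold above untreated in the negative cells (109 to 795) and *Gbp2* 109-fold (76.3 to 163). Of the 147 lower genes 53 were past the fold below untreated in the negative cells and 24 above it, beside 15.5% and 15.6% of all genes. The 24 are near the share of all genes and are no result about the lower genes. *Hspa1a* was among these 24, at 3.19-fold above untreated, and *Mafa* among the 53.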

How the data were processed

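Islet cells were measured with the 10x Genomics 3′ kit (version 3 in the study's methods, version 2 per the labels). The authors counted UMIs with Cell Ranger on mm10, per the submitters' processing notes. No source used here names its version or its gene annotation, and the matrix headers give software version 3.0.0. The deposited values are raw UMI counts of 31053 genes, and only these counts were used. Gene positions are those of GENCODE M21 (30934 identifiers matched), and start regions are from RefSeq on GRCm38.p6.

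Counts were summed per group and divided by the group's total UMIs. Levels have Poisson, shares Clopper-Pearson and ratios conditional binomial intervals, all exact at 95% and for counting error only. Thinning drew 4000 UMIs per cell without replacement. The ratios and their intervals, but not the thinning, were tried on simulated sums per group, which had no spread between cells. The named genes are the 15 highest and 15 lowest ratios past 1.5-fold as deposited and after thinning, with list extremes and genes the study names. The β-cells, lists and rules were chosen with earlier results of these data known. The motifs and the 4 sequences shown were chosen after the values were seen. The upper gene limit was the only doublet removal, and Scrublet (scanpy 1.11.5) was an alternative. Computation used scipy 1.17.1, numpy 2.4.6, pandas 2.3.3, matplotlib 3.10.9 and Python 3.11.15. Alternatives changed depth, the *Nos2* threshold, weighting, totals, cell limits, doublets, marker-bearing cells, gene filter, fold and scale. The β-cells had 4006 to 17520 UMIs, 9382790 in all.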

Additional observations from a re-analysis of the deposited data

Results flagged for a closer look

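*Nos2* UMIs also occurred outside the β-cells of the IL-1β library, in barcodes the comparisons above do not use. Of 325 barcodes with over 5% of UMIs from *Gcg*, the glucagon gene, and under 5% from insulin, 38 had a *Nos2* UMI (11.7%, 8.41 to 15.7). In the untreated library this was 0 of 83, which allows up to 3.61% (3 barcodes). Of 91 barcodes with over 5% of UMIs from *Sst*, the somatostatin gene, and under 5% from insulin, 25 had one (27.5%, 18.6 to 37.8), against 0 of 39 untreated, which allows up to 7.69%. Median depths in the IL-1β library were 7005 and 5346 UMIs, below the 8562 of the β-cells. They were set apart here because *Nos2* was above the level of the untreated barcodes. In the same library 4 of 566 barcodes under 1500 UMIs had a *Nos2* UMI (0.707%), and the barcodes with macrophage, endothelial, mesenchymal or acinar markers had 0 of 37, 0 of 33, 0 of 33 and 0 of 17.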

How the results depend on the processing

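How many genes pass 1.5-fold moved with depth, the gene filter, the fold and the *Nos2* threshold, while 21 of the 30 named genes passed it under all 18 alternatives that gave new ratios and left more than 13 cells. One of these, thinning with new calls, had been used to choose them. The share of 30.8% was 22.4% after thinning, 20.5%, 35.3% and 36.6% in the depth classes, and 22.6% with at least 2 *Nos2* UMIs required. The 68 higher and 147 lower genes became 244 and 486 after thinning with new *Nos2* calls, 196 and 421 with the deposited calls, 524 and 970, 321 and 398, and 169 and 313 in the depth classes from lowest to highest, and 111 and 276 with at least 2 *Nos2* UMIs. They became 24 and 19 with genes in at least 25% of cells, 366 and 778 with every gene of at least 20 UMIs, 13 and 17 at 2-fold, and 5 and 5 on the study's ln scale with its threshold of 0.5. The 68 genes had at least 112 UMIs each in both groups together. Leaving out cells with any marker UMI of another type left 13 cells with 3 positive (23.1%), and its 1495 and 3153 genes and its log2 ratios of 1.45 for *Dnajb1* and −0.021 for *Gbp2*, opposite in sign, say little. Of the other genes past 1.5-fold as reported, those with a reversed log2 ratio were *Rsad2* (too few cells for the comparison) at −1.70 in the middle depth class, *Hspa1a* at 0.057 without *Hspa1a*-rich cells, and *Pyy* at 0.29 without cells of the PP-cell list, an alternative added after seeing the data. *Irf1*, not past the fold, crossed 1 in the lowest class (ratio 1.04). With the 13 cells *Irf1* was at 1.82 and *Sod2* at 0.995. There *Slc6a14* had no UMI in positive cells and *Hspa1a* none in negative cells, opposite to their reported direction and without a log2 ratio. The 9 named genes not past the fold throughout were *Hspa1a* and *Pyy* without those cells, *Cxcl10* (ratio 1.03), *8430408G22Rik*, *Ttyh1*, *Plat* and *Rbp4* in the middle class (*Rbp4* also with no upper gene limit), *Ccrl2* in the highest and *St8sia5* in the lowest class. The cause was not tested. Mean per cell, totals without hormones, other limits on genes, mitochondrial share, UMIs or insulin, shared barcodes, *Hspa1a*-rich cells, and cells with δ-cell or with macrophage, endothelial and mesenchymal markers left both counts within 1.5 times and the share between 29.5% and 33.0%. Scrublet marked 5 of 2164 cells (0.231%), so that alternative tests little. No paired analysis was possible because each condition is 1 library, and for the same reason no replicate could be left out.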

Other observations

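Several secreted and inflammatory genes on the lists were captured in too few β-cells for the comparison and are given as values, chosen after these were seen. *Acod1*, which makes the antimicrobial metabolite itaconate, was at 43.4 CPM in *Nos2*-positive cells (36.4 to 51.4) and 8.26 in *Nos2*-negative cells (6.17 to 10.8), and it was detected in 16.1% and 4.27% of them. *Cxcl2*, a chemokine for neutrophils, was at 85.2 and 18.9 CPM, in 6.50% and 3.03% of cells. *Tnf* had 26 UMIs in the positive and 10 in the negative cells. The small heat shock gene *Hspb1* was at 8.75 and 50.3 CPM, in 3.41% and 8.82% of cells. *Il6*, by contrast, had 2 and 3 UMIs.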
